A study of Mus musculus with 11 samples.

Results

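Transcripts of the enzymes that write, copy and remove DNA methylation were compared in 3 mouse cell lines. The 8 genes were chosen by symbol: Dnmt1, Uhrf1, Dnmt3a, Dnmt3b, Dnmt3l, Tet1, Tet2 and Tet3. They are 8 of 23355 gene symbols in the tables, and each stands on 1 table entry. NMuMG is an epithelial line from mammary gland (strain NAMRU), E14 is an embryonic stem (ES) cell line (strain 129/Ola) and NIH/3T3, written NIH3T3 here, is a fibroblast line from embryo (strain NIH/Swiss). NMuMG and NIH3T3 were grown with 10% serum. ES cells were grown on gelatin with 15% serum and LIF at 1000 units/ml. In each line some cultures were parental and others carried a BRE reporter, a transgene that responds to BMP signalling. The labels name 1 reporter line per parent line and do not say how it was derived.

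The total RNA of 11 libraries gave 10 replicates. NMuMG had 4 (replicates 1 and 3 parental, 2 and 4 reporter). ES cells had 3 (replicate 1 parental, 2 and 3 reporter), where replicate 2 is the mean of 2 technical runs. NIH3T3 had 3, of which replicate 1 was parental. The other tables of NIH3T3 show the line in their names but not which labelled sample they hold, and both remaining NIH3T3 samples are labelled as reporter cultures. The comparisons with NIH3T3 therefore mix parental and reporter cultures, as do those between ES cells and NMuMG. The number runs in the table names fall into 3 library series: NMuMG replicates 1 and 2 with ES replicates 1 and 2, then NMuMG replicates 3 and 4 with ES replicate 3 and NIH3T3 replicate 1, then NIH3T3 replicates 2 and 3. Values are FPKM, fragments per kilobase of transcript scaled to the mapped fragments of the library, so levels can be compared between genes. The tables hold no read counts and the absolute depth is unknown. Relative depth as read from the deposited intervals was 0.933 to 1.28 of that of ES replicate 1 in series 1 and 2, and 3.80 and 3.81 in series 3. The 8 ES markers summed to 4006 to 5400 FPKM in ES cells and at most 52.9 elsewhere. Outside ES cells most of that sum was Klf4, at 30.5 to 51.7 FPKM in NMuMG and 10.2 to 19.0 in NIH3T3. Klf4 was 27.4, 151 and 79.0 FPKM in ES replicates 1 to 3, so it did not separate ES cells from NMuMG, whereas the other 7 did. The 8 epithelial markers summed to 5041 to 7383 FPKM in NMuMG, 330.3 to 396 in ES cells and at most 1.05 in NIH3T3. Of these 8, Cldn4 and Epcam were lower in NMuMG (at most 0.304 and 7.57 FPKM) than in ES cells (at least 13.8 and 62.8). The other 6 were higher in every NMuMG replicate than in every ES replicate. The 8 fibroblast markers summed to 2511 to 6823 FPKM in NIH3T3 and at most 5.00 elsewhere. The 6 blood markers summed to at most 11.3 FPKM in any replicate, and the 6 neural markers to 36.8 to 64.4 in ES cells, most of it Tubb3 (29.9 to 61.4), and at most 5.03 elsewhere. The titles number the replicates as biological but do not say what was separate between them, so p-values measure the spread between these samples.

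DNA methylation in mammals sits mostly on the cytosine of CpG dinucleotides. Dnmt1 copies it onto the new strand after replication, guided by Uhrf1, which binds CpGs that carry methylation on only the old strand. Dnmt3a and Dnmt3b set new methylation, Dnmt3l is a catalytically inactive cofactor that assists them in germ cells and early embryos, and the TET enzymes oxidise methylcytosine, a step towards its removal. ES cells are known for high levels of Dnmt3b, Dnmt3l, Tet1 and Tet2.

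The start regions of 4 of the genes are shown: the maintenance pair for a motif of S phase genes that both hold, and Dnmt3b and Dnmt3l for their unequal CpG content. Each is the RefSeq window from 250 bases before to 50 bases after a transcript start, in GRCm38.p6 (the assembly behind mm10), written on the strand of the gene. All 8 genes matched the RefSeq table, with 15 windows. In the first pair below, capitals mark the letters TTTCGCGC or TTTGGCGC, or their reverse complements, which are forms of the motif bound by E2F factors, regulators of S phase genes. Both strands were searched, and the marked matches do not overlap each other. Dnmt1 has 3 windows and Uhrf1 has 2, and the one with a match is shown for each. The Dnmt1 window is at chr9:20952574-20952873 (minus strand) and the Uhrf1 window at chr17:56304063-56304362 (plus strand).
Dnmt1: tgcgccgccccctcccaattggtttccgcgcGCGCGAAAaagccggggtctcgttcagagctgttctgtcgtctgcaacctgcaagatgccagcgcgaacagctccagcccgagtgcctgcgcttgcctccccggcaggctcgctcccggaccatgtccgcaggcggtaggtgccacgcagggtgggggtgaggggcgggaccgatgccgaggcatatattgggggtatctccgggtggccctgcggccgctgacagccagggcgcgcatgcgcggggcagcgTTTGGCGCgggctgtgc
Uhrf1: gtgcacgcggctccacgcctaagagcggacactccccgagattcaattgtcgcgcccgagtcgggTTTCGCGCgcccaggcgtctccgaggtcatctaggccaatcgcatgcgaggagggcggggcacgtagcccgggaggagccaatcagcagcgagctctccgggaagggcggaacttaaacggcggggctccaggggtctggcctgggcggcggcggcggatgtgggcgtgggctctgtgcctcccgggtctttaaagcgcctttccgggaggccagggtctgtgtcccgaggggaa
TTTCGCGC occurs in 0.323% of 32851 mouse windows, TTTGGCGC in 0.514%, and either in 0.813%. Among the 15 windows of the 8 genes, 2 hold a match, the Dnmt1 window with both motifs and the Uhrf1 window with TTTCGCGC. Both motifs contain CpGs, and the 2 matching windows are rich in them (percentile 91.4 each). The shares over all windows are not matched for CpG content. A match describes the letters and does not show that a factor binds there. In the second pair, capitals mark every CpG. The Dnmt3b window is at chr2:153649199-153649498 and the Dnmt3l window, the most upstream of 3, at chr10:78042037-78042336 (both plus strand).
Dnmt3b: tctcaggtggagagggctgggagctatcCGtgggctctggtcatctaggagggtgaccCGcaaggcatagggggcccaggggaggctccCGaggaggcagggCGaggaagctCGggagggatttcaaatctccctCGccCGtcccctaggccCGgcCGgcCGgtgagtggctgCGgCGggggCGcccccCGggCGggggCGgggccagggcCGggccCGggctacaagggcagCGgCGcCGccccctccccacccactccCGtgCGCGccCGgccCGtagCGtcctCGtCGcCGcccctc
Dnmt3l: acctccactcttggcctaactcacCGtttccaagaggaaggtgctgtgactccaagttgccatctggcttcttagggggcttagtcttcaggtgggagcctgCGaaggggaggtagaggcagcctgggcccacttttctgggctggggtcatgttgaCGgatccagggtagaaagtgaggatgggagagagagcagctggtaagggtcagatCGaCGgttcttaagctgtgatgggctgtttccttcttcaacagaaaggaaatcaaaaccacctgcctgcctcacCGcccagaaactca
The Dnmt3b window holds 30 CpGs and stands at percentile 88.3 of all windows, whereas the 3 Dnmt3l windows hold 6, 4 and 3. The median of all windows is 7 CpGs, with quartiles of 3 and 20. The Dnmt1 and Uhrf1 windows shown above hold 33 CpGs each.

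Across the lines, ES cells had the highest mean for 7 of the 8 genes, and Tet3 was the exception. Against NMuMG, 7 of the 8 genes were higher in ES cells and Tet3 was lower. A gene was called at an adjusted p under 0.05 (limma on log2(FPKM + 1), Benjamini-Hochberg over all genes tested) with a fold of at least 2. Of all 12348 genes tested, 45.7% were called between ES cells and NMuMG, 19.4% higher and 26.4% lower in ES cells, and 71% were under 0.05 before adjustment, so a called difference by itself is common between these lines. Against NIH3T3, 5 of the 8 were called higher and Tet3 lower, where 43% of all genes were called, 20.1% higher and 23% lower. Between NIH3T3 and NMuMG none of the 8 was called by limma, where 25% of all genes were called, 10.6% higher and 14.4% lower in NIH3T3. Before adjustment 1 of the 8 was under 0.05, against 48.5% of all genes. The ES replicates enter both of the first comparisons, which are therefore not independent. Differences between lines in bulk RNA cannot tell fewer expressing cells from less RNA per cell.

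**Figure D1:**
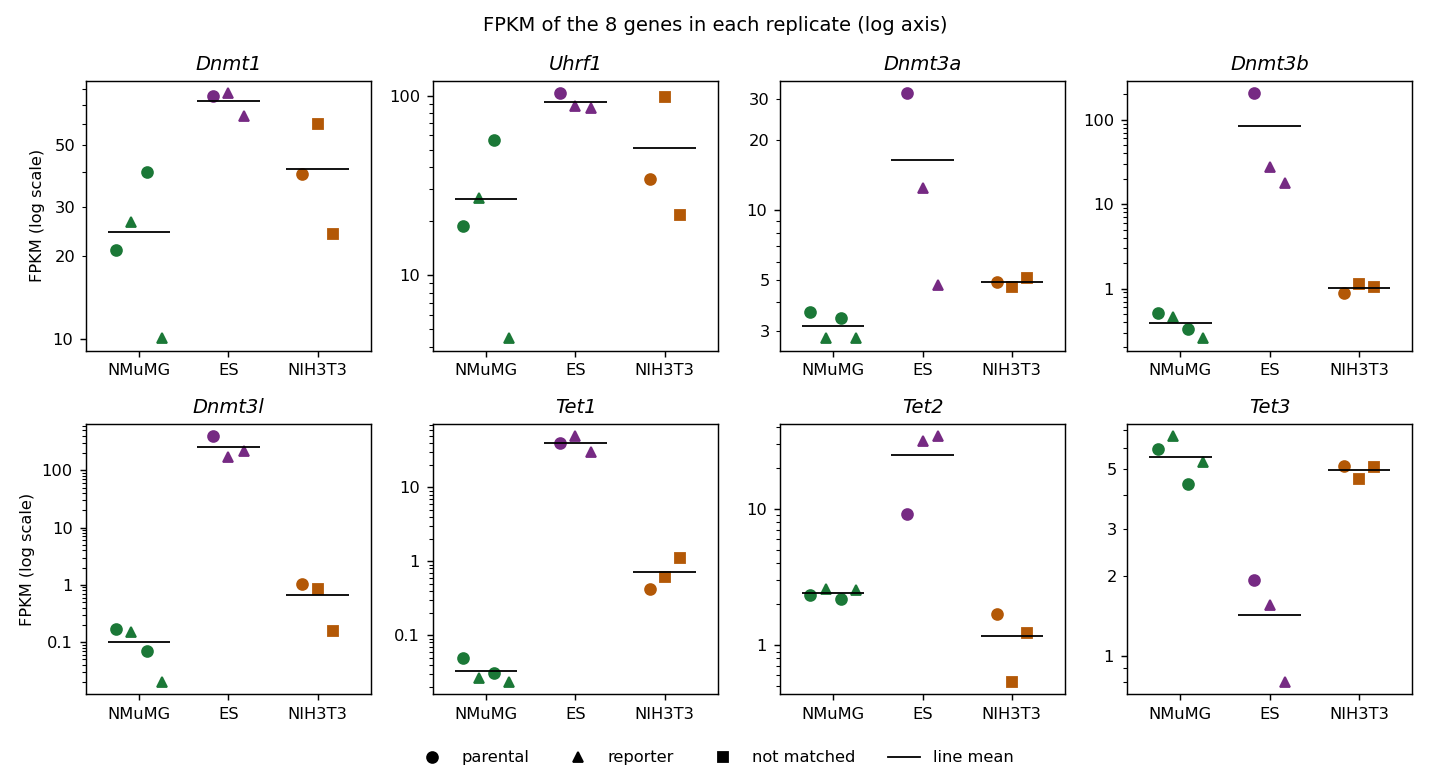
FPKM (log axis) of the 8 genes in each of the 10 replicates, by line; circles are parental, triangles reporter and squares replicates not matched to a sample, and black bars are line means. Dnmt3b, Dnmt3l and Tet1 lie at 18 FPKM or above in every ES replicate and at 1.13 or below in every other replicate, while Tet3 is lowest in ES cells.

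The maintenance pair was present in every line. Dnmt1 (chromosome 9, 20907206 to 20959888, mm10) stood at 21.0, 26.4, 40.1 and 10.1 FPKM in NMuMG replicates 1 to 4. It stood at 75.3, 77.1 and 63.9 FPKM in ES replicates 1 to 3, and at 39.5, 59.8 and 23.9 FPKM in NIH3T3 replicates 1 to 3. Every ES replicate was above every other replicate, and NMuMG and NIH3T3 overlapped. The mean was 24.4 ± 12.5 FPKM in NMuMG (SD, n = 4), 72.1 ± 7.15 in ES cells (SD, n = 3) and 41.1 ± 17.99 in NIH3T3 (SD, n = 3). In the limma fit Dnmt1 was higher in ES cells than in NMuMG by 1.67 on the log2 scale (SE 0.412, adjusted p = 0.00452). It was not called against NIH3T3 (log2 difference 0.89, adjusted p = 0.103), and without NIH3T3 replicate 2 it was (1.20, adjusted p = 0.0494, limma).

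Uhrf1, the ubiquitin ligase that brings Dnmt1 to replicated DNA (chromosome 17, 56303337 to 56323486), varied more than Dnmt1 within NMuMG and NIH3T3. NMuMG replicates 1 to 4 held 18.8, 26.9, 56.4 and 4.45 FPKM, a 12.7-fold range within the line. ES replicates 1 to 3 held 103, 88.0 and 85.7 FPKM, and NIH3T3 replicates 1 to 3 held 34.3, 97.7 and 21.6. ES cells were above all NMuMG replicates, while NIH3T3 replicate 2 lay within the ES range. The limma difference of ES cells over NMuMG was 2.19 (SE 0.708, adjusted p = 0.0187), and that over NIH3T3 was 1.12 (SE 0.757, adjusted p = 0.222). The first was 1.56 without NMuMG replicate 4 (adjusted p = 0.0268, limma) and 2.69 without NMuMG replicate 3 (adjusted p = 0.00441, limma), and it missed the threshold without ES replicate 1 (2.11, adjusted p = 0.0548, limma). NMuMG replicate 4, a reporter culture, was lowest for both genes.

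Taken as a list mean, genes of S phase and mitosis varied between the replicates of NMuMG and of NIH3T3 in the same order. The mean log2(FPKM + 1) of the 20 genes of the S phase and mitosis list was 3.66, 4.11, 5.19 and 1.93 in NMuMG replicates 1 to 4, 5.99, 6.07 and 5.96 in ES cells, and 4.94, 5.69 and 4.30 in NIH3T3. Within NMuMG and within NIH3T3, the replicates ranked the same by this mean, by Dnmt1 and by Uhrf1. Single genes could differ: Plk1 (32.4, 24.6 and 17.9 FPKM in NIH3T3 replicates 1 to 3) and Top2a (102, 85.4 and 55.8) were highest in replicate 1. So were Aurkb and Ccnb1, while the other list genes were highest in NIH3T3 replicate 2. Of the 20 genes, 17 were called higher in ES cells than in NMuMG and none lower (median log2 difference 2.08, against -0.093 for all genes tested). That count was 13 without NMuMG replicate 4, 11 without ES replicate 2 and 10 without ES replicate 3. Ccne1, a cyclin of S phase entry, rose most (4.69, SE 0.614, adjusted p = 7.39e-05, limma). Against NIH3T3, 3 of 20 were called higher and none lower (median 1.08, against 0.028 for all genes tested), and 1 to 6 were as single replicates were left out. In NIH3T3 against NMuMG, Ccne1 (1.96) and E2f1 (1.45) were called higher and none of the 20 lower (median 1.31, against -0.048 for all genes tested), while 14 were called higher without NMuMG replicate 3 and none without NIH3T3 replicate 2. The part of cell cycle differences in the Dnmt1 and Uhrf1 results was not tested.

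**Figure D2:**
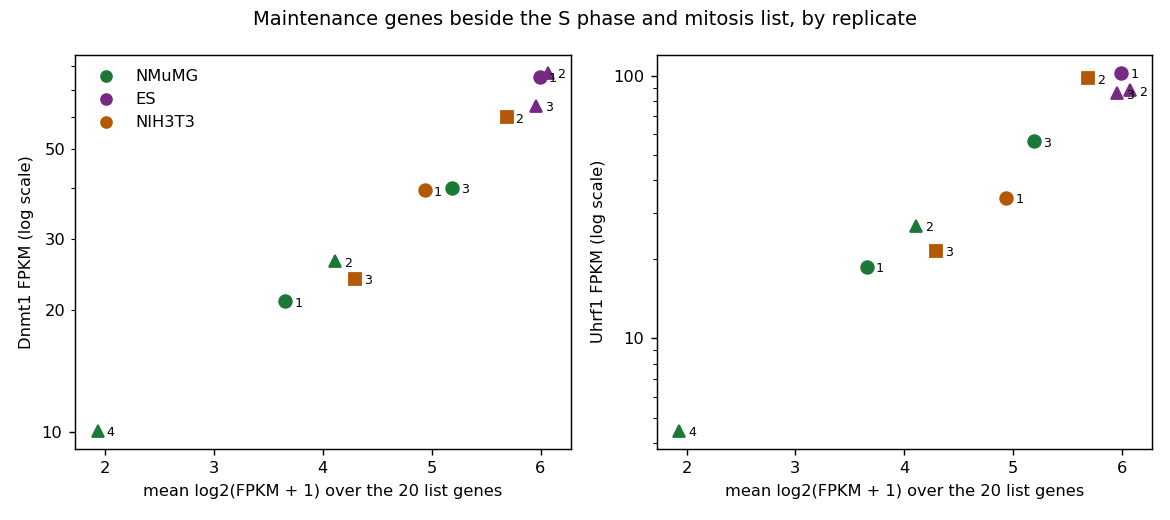
Dnmt1 (left) and Uhrf1 (right) in FPKM on a log axis against the mean log2(FPKM + 1) of the 20 genes of the S phase and mitosis list, with 1 point per replicate, numbered within its line (circles parental, triangles reporter, squares not matched to a sample). NMuMG replicate 4 has the lowest value on every axis and the 3 ES replicates sit together at a list mean of 5.96 to 6.07.

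The 3 genes with the nearest profile were found for each gene over the 10 replicates, by root mean square difference of centred log2(FPKM + 1). Nearest to Uhrf1 were Lig1, a DNA ligase (0.227), Cdc6, an origin licensing factor (0.242), and Mcm6, a subunit of the replicative helicase (0.244). Nearest to Dnmt1 were Pask, a kinase (0.180), Mtfr2 (0.186) and Ube2s, a ubiquitin-conjugating enzyme of mitosis (0.193).

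Among the de novo genes, Dnmt3b and Dnmt3l set ES cells apart from both other lines, and all 3 genes varied between the ES replicates. Dnmt3a (chromosome 12, 3806980 to 3914443) stood at 3.62, 2.82, 3.43 and 2.80 FPKM in NMuMG replicates 1 to 4, and at 4.90, 4.68 and 5.10 in NIH3T3 replicates 1 to 3. ES replicates 1 to 3 held 31.9, 12.5 and 4.77 FPKM, a 6.69-fold range. ES replicate 3 lay inside the NIH3T3 range, so those groups overlapped, while all ES replicates were above all NMuMG replicates. Dnmt3a was called higher in ES cells than in NMuMG (1.72, SE 0.449, adjusted p = 0.0062, limma), by 1.09 without ES replicate 1 and 2.34 without ES replicate 3. Against NIH3T3 the difference of 1.22 (SE 0.480, adjusted p = 0.0474, limma) was not robust. It was 0.58 without ES replicate 1 (adjusted p = 0.143, limma), and the call was also lost without ES replicate 2 or any 1 NIH3T3 replicate. Within library series 2 it was -0.032 (adjusted p = 0.951, limma, with 1 replicate each of ES and NIH3T3).

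Dnmt3b, the de novo enzyme typical of early embryos (chromosome 2, 153649449 to 153687730), stood at 0.508, 0.458, 0.330 and 0.256 FPKM in NMuMG replicates 1 to 4 and at 0.884, 1.13 and 1.04 in NIH3T3. ES replicates 1 to 3 held 205.9, 27.5 and 18 FPKM. Every ES replicate was above all others, and the parental ES replicate was 9.06 times the mean of the reporter replicates. The ES mean of 83.8 ± 106 FPKM (SD, n = 3) was 216 times the NMuMG mean and 82.2 times the NIH3T3 mean. In the limma fit the difference was 5.12 over NMuMG (SE 0.642, adjusted p = 5.41e-05) and 4.58 over NIH3T3 (SE 0.686, adjusted p = 0.000215). Without ES replicate 1 these were 4.07 and 3.53, and without ES replicate 3 they were 5.79 and 5.25, called in each case. Differences on the log2(FPKM + 1) scale understate the change of a gene at such low levels.

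Dnmt3l (chromosome 10, 78042287 to 78063615) was the most abundant of the 8 in ES cells, at 391, 172.8 and 218 FPKM in replicates 1 to 3. NMuMG replicates held 0.167, 0.148, 0.0690 and 0.0203 FPKM and NIH3T3 replicates 1.03, 0.837 and 0.157. The difference was 7.81 over NMuMG (SE 0.283, adjusted p = 8.43e-09) and 7.24 over NIH3T3 (SE 0.303, adjusted p = 2.81e-08) in the limma fit, the largest among the 8 genes. ES cells stood far above both lines, whose replicates overlapped each other. The table entry overlaps that of Aire, which was listed at 0 in NMuMG and NIH3T3 and at 7.12, 5.37 and 2.59 FPKM in ES cells. Use of strand in counting is not given in the sources used here.

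The balance of the de novo pair differed between ES cells and the other lines. Dnmt3b made up 12.3%, 13.96%, 8.79% and 8.38% of the summed Dnmt3a and Dnmt3b FPKM in NMuMG replicates 1 to 4, 86.6%, 68.7% and 79.1% in ES replicates, and 15.3%, 19.5% and 17.0% in NIH3T3. All ES shares were above all others. The means were 78.1 ± 8.96% in ES cells (SD, n = 3) and 13.6 ± 4.11% in the 7 other replicates (SD; exact two-sided permutation test, p = 0.0167, the smallest that 3 against 7 allows). These 7 pool 2 different lines (means 10.86% in NMuMG and 17.25% in NIH3T3), so the p-value does not hold for either line alone. A share within a library does not depend on how that library was scaled.

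**Figure D3:**
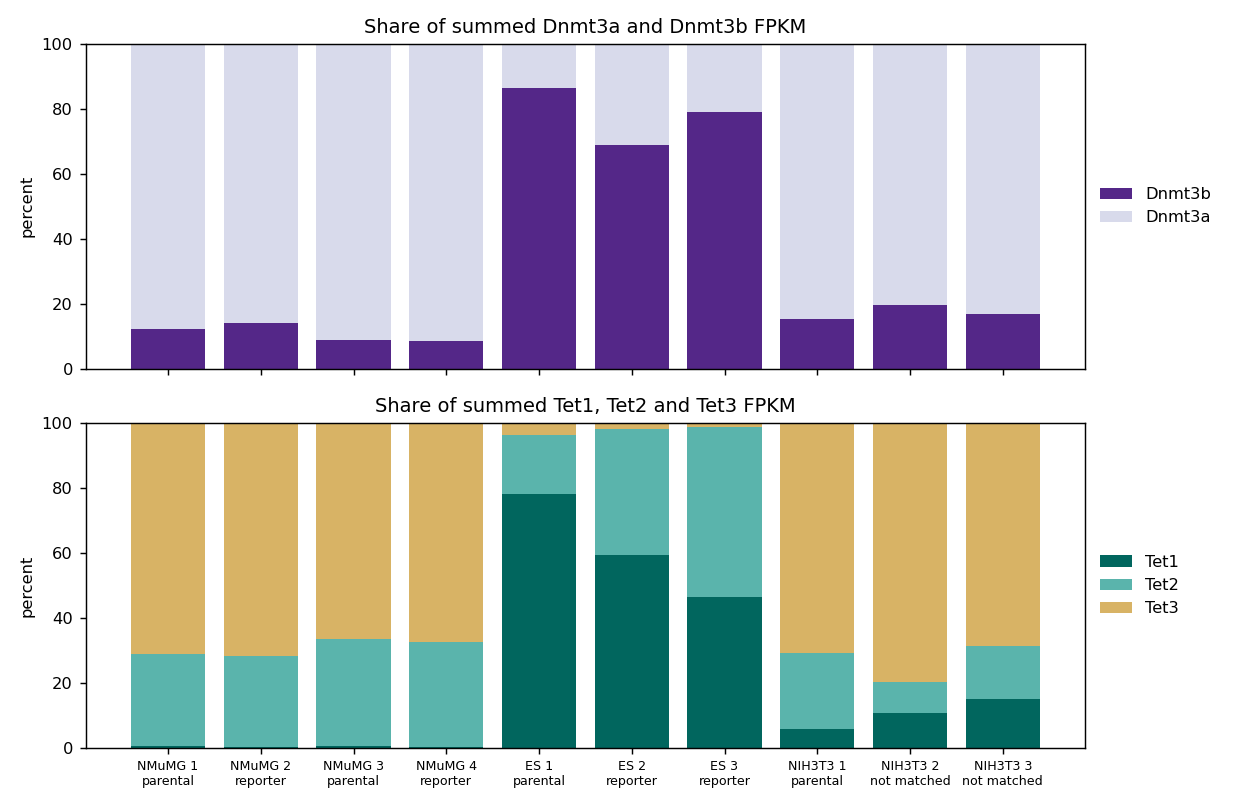
Stacked bars give the percent of summed FPKM taken by Dnmt3b and Dnmt3a (top) and by Tet1, Tet2 and Tet3 (bottom) in each of the 10 replicates. Dnmt3b takes 68.7% or more of its pair in every ES replicate and 19.5% or less elsewhere, and Tet3 takes at most 3.77% of the TET sum in ES cells and 66.6% or more elsewhere.

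The TET genes split by line in opposite directions. Tet1 (chromosome 10, 62804570 to 62880014) was near 0 in NMuMG, at 0.0497, 0.0262, 0.0313 and 0.0236 FPKM in replicates 1 to 4. It was 40.0, 48.8 and 30.3 FPKM in ES replicates and 0.416, 0.617 and 1.11 in NIH3T3. The 3 lines did not overlap, and ES cells stood far above the rest. The limma difference was 5.28 over NMuMG (SE 0.193, adjusted p = 8.93e-09) and 4.56 over NIH3T3 (SE 0.206, adjusted p = 4.67e-08). NIH3T3 exceeded NMuMG by 0.71 (SE 0.193, adjusted p = 0.0136, limma), which is under the fold of 2 on this scale. With a pseudocount of 0.1 that difference was 2.53 and was called (adjusted p = 9.87e-05, limma).

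Tet2 (chromosome 3, 133463677 to 133544390) stood at 2.35, 2.59, 2.18 and 2.54 FPKM in NMuMG replicates 1 to 4 and at 1.71, 0.541 and 1.23 in NIH3T3. ES replicates 1 to 3 held 9.27, 31.7 and 34.1 FPKM. The lines did not overlap, in the order ES, NMuMG, NIH3T3, and the parental ES replicate was the lowest of its line. ES cells were higher by 2.74 over NMuMG (SE 0.388, adjusted p = 0.000129) and by 3.44 over NIH3T3 (SE 0.415, adjusted p = 4.76e-05) in the limma fit. NIH3T3 and NMuMG differed by -0.70 (SE 0.388, adjusted p = 0.181, limma), so that part of the order was not called.

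Tet3, the TET enzyme of the oocyte and zygote and of many differentiated cells (chromosome 6, 83362374 to 83441678), was the exception. NMuMG replicates 1 to 4 held 5.93, 6.63, 4.41 and 5.34 FPKM, NIH3T3 replicates held 5.15, 4.59 and 5.10, and ES replicates held 1.93, 1.55 and 0.801. Every ES replicate was below all others, and NMuMG and NIH3T3 overlapped. The mean was 5.58 ± 0.940 FPKM in NMuMG (SD, n = 4), 4.95 ± 0.309 in NIH3T3 (SD, n = 3) and 1.43 ± 0.574 in ES cells (SD, n = 3). Tet3 was lower in ES cells by a log2 difference of -1.46 against NMuMG (SE 0.196, adjusted p = 8.73e-05) and -1.32 against NIH3T3 (SE 0.209, adjusted p = 0.000312) in the limma fit. With parental cultures alone neither was called (-1.06 and -1.07). Within library series 2 the difference from NMuMG was called (-1.70, adjusted p = 0.0349, limma) and that from NIH3T3 was not (-1.77, adjusted p = 0.0512, limma). The nearest profiles were those of Hps5, a lysosome-related organelle gene (0.123), Dvl1, a Wnt signal transducer (0.165), and Sec63, of protein entry into the endoplasmic reticulum (0.176).

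The composition of the TET sum followed. Tet1 took 0.596%, 0.283%, 0.473% and 0.298% of the sum in NMuMG replicates 1 to 4, 78.1%, 59.5% and 46.5% in ES replicates 1 to 3, and 5.72%, 10.7% and 14.9% in NIH3T3. The ES mean of 61.4 ± 15.9% (SD, n = 3) stood against 4.72 ± 5.99% in the 7 other replicates (SD; exact two-sided permutation test, p = 0.0167, the smallest possible). These 7 again pool 2 different lines (means 0.413% in NMuMG and 10.5% in NIH3T3), so the p-value does not hold for either line alone. Tet2 took 18.1%, 38.6% and 52.3% in ES replicates 1 to 3, so the leading TET gene was Tet1 in replicates 1 and 2 and Tet2 in replicate 3. The summed TET level was 51.2, 82.1 and 65.2 FPKM in ES replicates, 6.63 to 9.25 in NMuMG and 5.75 to 7.45 in NIH3T3.

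**Figure D4:**
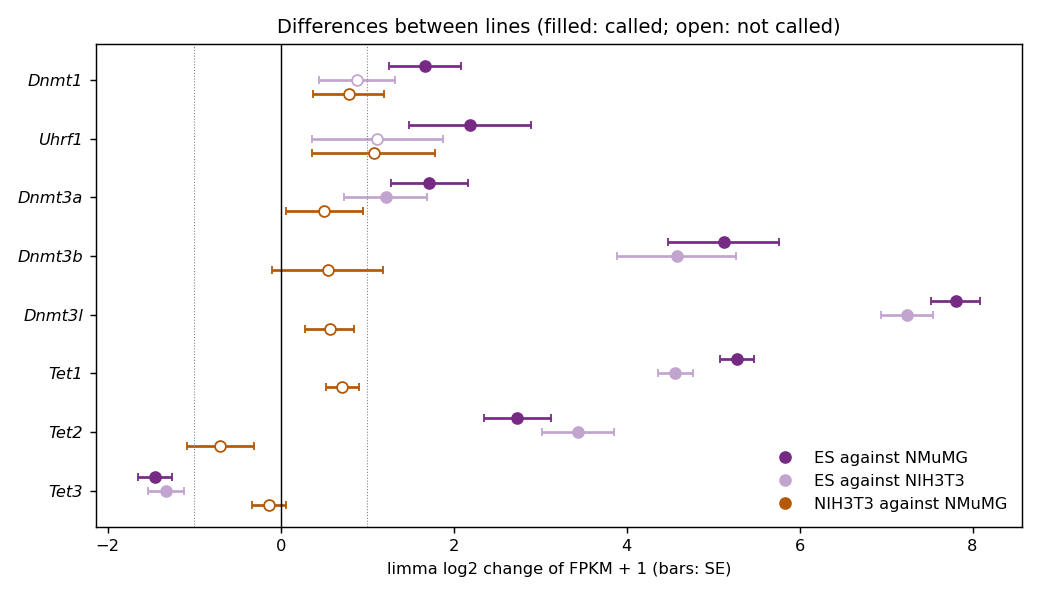
limma log2 differences of FPKM + 1 with SE for the 8 genes in the 3 line comparisons; filled points were called (adjusted p under 0.05 and a fold of at least 2), open points were not, and dotted lines mark a fold of 2. Dnmt3l, Tet1 and Dnmt3b lie at 4.56 or above in both comparisons with ES cells, and Tet3 lies at -1.32 and -1.46.

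The groups of ES cells and NMuMG did not overlap for any of the 8 genes, as was the case for 71.4% of all genes tested. Between ES cells and NIH3T3 they did not overlap for 6 of 8 (67% of all genes), and between NIH3T3 and NMuMG for 4 of 8 (45.9% of all genes), namely Dnmt3a, Dnmt3b, Tet1 and Tet2. All 8 genes passed the filter of at least 1 FPKM in at least 3 replicates. Dnmt3b, Dnmt3l and Tet1 were below 1 FPKM in every NMuMG replicate and passed through the ES replicates, with 2, 1 and 1 NIH3T3 replicates at or above 1 FPKM, so the filter favoured a call for these 3. With every gene above 0 tested they were also called (adjusted p over NMuMG 0.000289, 1.5e-07 and 1.59e-07, limma). The filter only chooses genes and leaves each difference unchanged, so that fit is no separate check on these calls.

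Within library series 1, NMuMG and ES cells had 2 replicates each, and 5 of the 8 genes could be tested under the filter of 1 FPKM in 3 replicates. All 5 were called there, in the same directions as with all replicates. The share of all genes called in the fits within a series is not given here (45.7% with all replicates). These calls therefore do not single out the 5 genes. The limma differences were 1.65 for Dnmt1, 2.04 for Uhrf1, 2.33 for Dnmt3a, 2.40 for Tet2 and -1.41 for Tet3. Dnmt3b, Dnmt3l and Tet1 reach 1 FPKM in only the 2 ES replicates there and were left out by that filter. With the filter lowered to 2 replicates, a choice made after the data were seen, they enter through the ES replicates where they are high, so a call is largely fixed by the filter, and only their differences of 5.69, 7.82 and 5.45 are given. In series 2, with 1 ES replicate, Tet2 (3.39) and Tet3 (-1.70) were called against NMuMG, and Dnmt1 (1.61), Uhrf1 (2.29) and Dnmt3a (0.49) were not. With the filter lowered to 1 replicate there, the differences were 3.88 for Dnmt3b, 7.71 for Dnmt3l and 4.93 for Tet1, with the same limit, and Tet3 was not called (adjusted p = 0.0615, limma).

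The parental and reporter cultures were then compared within lines. In NMuMG none of the 8 genes was called by limma and none was under 0.05 before adjustment, where 0.212% of 12274 genes were called, 0.0489% higher and 0.163% lower, and 5.17% were under 0.05 before adjustment. Uhrf1 had the largest difference, -1.45 (SE 0.851, adjusted p = 1, limma), with 18.8 and 56.4 FPKM in parental and 26.9 and 4.45 in reporter replicates. The groups overlapped, and as single NMuMG replicates were left out the difference ran from -2.63 to -0.27, and that of Dnmt1 from -1.44 to -0.13. The S phase and mitosis list moved with them, with a median of -1.44 against -0.026 for all genes tested and none of the 20 called by limma.

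In ES cells the comparison rests on 1 parental replicate. None of the 8 genes was called by limma, where 0.0978% of all genes were called, all of them lower in the reporter cultures. At an unadjusted p under 0.05 stood 4 of the 8, against 8.95% of all genes. Dnmt3b was 205.9 FPKM in the parental culture and 27.5 and 18 in reporter cultures (-3.15, SE 0.313, adjusted p = 0.0576, limma). Tet2 was 9.27 FPKM in the parental and 31.7 and 34.1 in the reporter cultures (1.72, SE 0.208, adjusted p = 0.0838, limma). Dnmt3a (-1.90, adjusted p = 0.33, limma) and Dnmt3l (-1.01, adjusted p = 0.292, limma) stood lower in the reporter cultures, whose means the parental value exceeded 3.70 and 2.00 times. Dnmt1, Uhrf1 and Tet1 lay within 1.19-fold between the parental value and the reporter mean.

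The technical runs of ES replicate 2 held Dnmt3b at 26.7 and 28.2 FPKM and Tet2 at 31.8 and 31.6, which measures the spread of 1 sample and not that between cultures. Calls depended on which replicates were kept. Without ES replicate 2, Dnmt3b (-3.45, adjusted p = 0.036, limma) and Dnmt3a (-2.51, adjusted p = 0.0414, limma) were called, and without ES replicate 3 Dnmt3b was (-2.86, adjusted p = 0.0463, limma). These fits set 1 ES culture against 1, with the spread taken from NMuMG alone, so they do not measure variation between ES cultures. With every gene above 0 tested, Dnmt3b (adjusted p = 0.0163, limma) and Tet2 (adjusted p = 0.0132, limma) were called. The difference between the ES and the NMuMG reporter effect, the interaction, was called for 0.0244% of genes and for none of the 8 by limma, at -3.09 for Dnmt3b (adjusted p = 0.131) and 1.60 for Tet2 (adjusted p = 0.174). At an unadjusted p under 0.05 it stood for 4 of the 8 (Dnmt3a, Dnmt3b, Dnmt3l and Tet2), against 7.87% of all genes. These are the same 4 genes as in the ES comparison, and they rest on the same parental ES culture. In NMuMG, Dnmt3b and Dnmt3l were at most 0.508 and 0.167 FPKM, which leaves little room for a reporter difference on this scale (-0.066 and -0.045). Their interactions (-3.09 and -0.96) therefore nearly repeat the ES differences (-3.15 and -1.01). The interaction count is no separate check on the ES count. A property of that single parental ES culture and the reporter cannot be told apart.

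Pluripotency genes also differed between these ES replicates. Klf4 was 27.4, 151 and 79.0 FPKM in ES replicates 1 to 3, Esrrb 60.7, 171 and 189.8, and Nanog 129, 193 and 339.8. Prdm14, which in mouse ES cells is known to repress Dnmt3b and Dnmt3l, was 2.27, 4.96 and 19.7 FPKM. All 4 were lowest in the parental culture, whereas Pou5f1 (1027, 1099 and 1133 FPKM) and Sox2 (267, 300.2 and 276) were nearly level. Dppa3, a protein that keeps Uhrf1 from chromatin in the oocyte, was 19.5, 2.11 and 5.31 FPKM, highest in the parental culture. None of these was called between parental and reporter cultures, and their part in the Dnmt3b and Tet2 values was not tested. Gadd45g, a stress gene linked to demethylation, was the 1 listed pathway gene called, and it was lower in the reporter cultures (16.9 FPKM against 0.475 and 0.744, limma difference -3.48, SE 0.247). That call rests on 1 parental culture and was lost after quantile normalization (-3.54, adjusted p = 0.0711, limma) and with the library series as a replicate block (-3.56, adjusted p = 0.0762, limma).

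**Figure D5:**
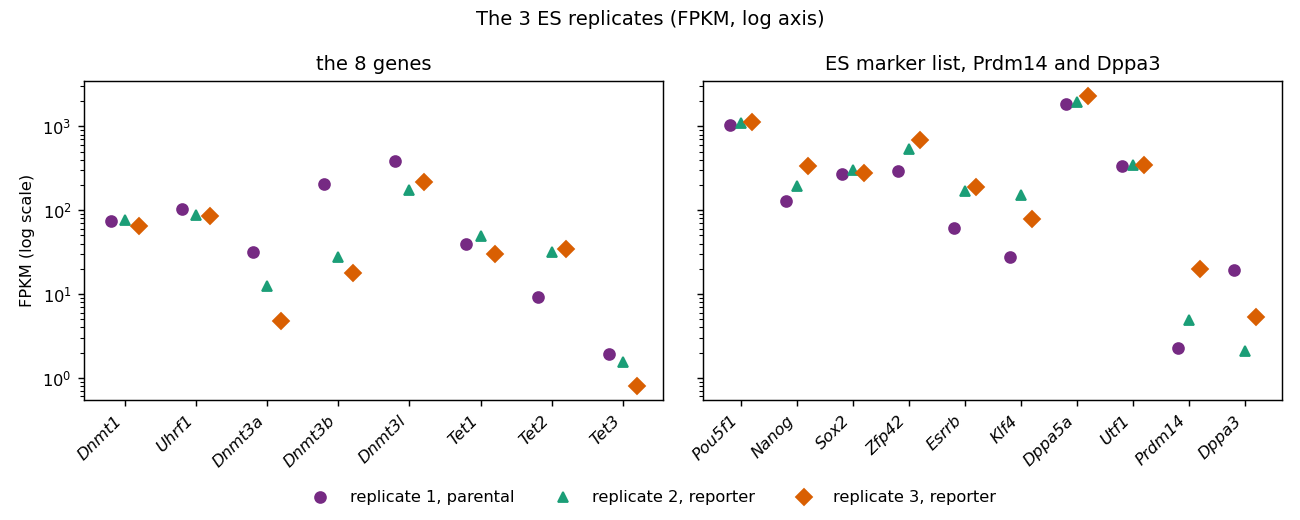
FPKM (log axis) in the 3 ES replicates for the 8 genes (left) and for the ES marker list with Prdm14 and Dppa3 (right). Dnmt3a, Dnmt3b and Dnmt3l are highest and Tet2 lowest in the parental replicate 1, where Klf4, Esrrb, Nanog, Zfp42 and Prdm14 are also lowest.

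The genes nearest in profile to those high in ES cells were found by the same measure. That measure uses the ES replicates, so a pattern among them shared with the nearest genes follows from the choice. Nearest to Dnmt3b were Zfp600 (0.438), Gm13247 (0.445) and Rex2 (0.473), which stood at 66.5, 62.4 and 74 FPKM in the parental ES culture and at most 27.9 in the reporter cultures. These 3 are zinc finger genes of a repetitive family, so their reads may be shared between copies. Nearest to Tet2 were Dact2 (0.323), Ly6g6e (0.356) and Ppm1j (0.367), each lowest among ES replicates in the parental culture. Nearest to Tet1 were Eras (0.371), Jarid2 (0.376) and 1700019D03Rik (0.383), and nearest to Dnmt3l were Ifitm1 (0.390), L1td1 (0.430) and Sox2 (0.508). Nearest to Dnmt3a were Gm11627 (0.302), Kdm4c, a histone demethylase (0.306), and Sox3 (0.356).

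Other genes of the pathway are given by lists, to be read beside the medians of all genes tested given above and beside the shares of all genes called, 45.7% for ES cells against NMuMG, 43% against NIH3T3 and 25% for NIH3T3 against NMuMG. Of 12 partners of maintenance and de novo methylation, 8 were called higher in ES cells than in NMuMG and none lower (median 1.66). Hells, a chromatin remodeller needed for methylation (3.01, SE 0.605, adjusted p = 0.00132, limma), and its activator Cdca7 (2.78, SE 0.360, adjusted p = 6.71e-05, limma) rose, from 18.7 and 9.09 FPKM to 126 and 65.9 on average. Lig1 (2.25, adjusted p = 0.00832, limma) was also called, as was Dppa3 (2.88), which is listed at 0 in NMuMG and passed the filter through ES cells alone, so that its call was largely fixed. Against NIH3T3, 5 of 12 were called higher and none lower (median 1.10), Dppa3, Hells, Hdac1, Cdca7 and Usp7, and 3 were without ES replicate 1. In NIH3T3 against NMuMG limma called none of the 12 (median 0.352), but 4 without NMuMG replicate 3. Hells, Cdca7, Lig1 and Usp7 ranked the replicates of NMuMG, and those of NIH3T3, as the S phase and mitosis list did, while Hdac1 did not. The part of cell cycle differences in the results for these partners was not tested.

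Of the methyl-CpG readers, 6 genes of families that bind methylated DNA, 5 were called lower in ES cells than in NMuMG and none higher (median -1.71). Mbd2 held 44.5 to 49.2 FPKM in NMuMG, 34.8 to 41.0 in NIH3T3 and 6.50 to 10.2 in ES cells (-2.36 against NMuMG, SE 0.151, adjusted p = 4.39e-07, limma). ES cells did not overlap either line for Mbd2. Zbtb4 (-3.12, adjusted p = 1.61e-05, limma), Zbtb38 (-2.23, adjusted p = 1.19e-05, limma) and Zbtb33 (-1.20, adjusted p = 5.40e-05, limma) were lower as well. Against NIH3T3, Mbd2 and Zbtb4 were called lower, 2 of the 6, and none was called higher (median -0.595). In NIH3T3, Zbtb38 (-1.56) and Zbtb4 (-1.11) were called lower than in NMuMG (median of the 6, -0.731).

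Of 15 tested base excision and demethylation genes, 6 were called higher and 2 lower in ES cells than in NMuMG (median 0.523), a share of 53.3% that is near the 45.7% of all genes. Ung, a uracil glycosylase (3.48, adjusted p = 0.000222, limma), and Parp1, a DNA break sensor (2.33, adjusted p = 5.53e-05, limma), rose. Tdg, the glycosylase that removes the products of TET oxidation, stood at 7.34 ± 1.57 FPKM in NMuMG (SD, n = 4), 16.7 ± 3.38 in ES cells (SD, n = 3) and 4.20 ± 1.14 in NIH3T3 (SD, n = 3), and was called higher in ES cells in both comparisons (1.09 and 1.77). Gadd45b (-2.19, adjusted p = 1.69e-06, limma) and Gadd45g (-3.15, adjusted p = 0.00293, limma) fell. Against NIH3T3, 7 were called higher and 2 lower (median 0.861). Gadd45a (-2.23) and Neil1 (-1.04) were called lower in NIH3T3 than in NMuMG, and the other 13 were not called (median -0.071).

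Of 9 tested TET partners and cofactor genes, 2 were called higher and 4 lower in ES cells than in NMuMG (median 0.304). Idh1 and Idh2, which make the 2-oxoglutarate that TET enzymes use, fell from 95.1 and 150.9 FPKM to 32.5 and 35.8 on average (-1.51 and -2.08, adjusted p = 0.00036 and 3.44e-05, limma). Cxxc4, a CXXC protein known to bind Tet2, fell (-2.09, having passed the filter through NMuMG alone) and its relative Cxxc5 rose (2.04). Against NIH3T3, 2 were called higher and 2 lower (median 0.384). Of the list, Cxxc4 alone was called in NIH3T3 against NMuMG (-1.99; median of the list, -0.146).

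Of 15 tested methyl donor genes, 10 were called higher and 1 lower in ES cells than in NMuMG (median 1.15), with 6 higher without ES replicate 1. Gldc, which cleaves glycine to feed one-carbon metabolism, was 78.4, 50.2 and 75.2 FPKM in ES replicates and at most 1.90 in NMuMG and 0.179 in NIH3T3 (5.16 over NMuMG, SE 0.315, adjusted p = 3.1e-07, limma). Srm (2.21), Shmt1 (1.76) and Mthfd1 (1.69) also rose. Against NIH3T3, 6 were called higher and 1 lower (median 0.675), with 3 higher without ES replicate 1 or NIH3T3 replicate 3. Between NIH3T3 and NMuMG limma called none of the 15 (median 0.228).

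Of 13 tested genes of H3K9 methylation and imprint silencing, 6 were called higher and 1 lower in ES cells than in NMuMG (median 0.923), a share of 53.8% that is also near that of all genes. Zfp57, which keeps imprints methylated (2.58, adjusted p = 5.79e-05, limma), and its partner Trim28 (1.98, adjusted p = 1.69e-05, limma) rose, as did the H3K9 methyltransferase Suv39h2 (2.50). Prdm14 (2.88) was called too, but passed the filter through ES cells alone. Against NIH3T3, 7 were called higher and 1 lower (median 1.07). For NIH3T3 against NMuMG limma called none of the 13 (median 0.029).

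Of 20 germline genes known to be silenced by DNA methylation in somatic cells, 19 were below 1 FPKM in every NMuMG replicate and 18 in every NIH3T3 replicate, while 10 were at or above 1 FPKM in every ES replicate. Values below 1 FPKM are common, since 10351 to 11047 of 23849 table entries reached it in each library. Sycp3, of the meiotic chromosome axis, was listed at 0 in all NMuMG and NIH3T3 replicates and at 23.6, 36.2 and 46.3 FPKM in ES cells. Tex19.1 held 35.6, 10.0 and 48.3 FPKM in ES cells and at most 0.0387 elsewhere. Tdrkh went the other way, at 10.75 to 11.75 FPKM in NMuMG, 5.66 to 8.40 in NIH3T3 and 0.714 to 1.94 in ES cells. Brdt was also higher in NIH3T3, at 0.568 to 2.02 FPKM, than in ES cells, at most 0.180. Of the 20, 11 passed the filter, most of them through the ES replicates, so the count of 9 called higher and 1 lower against each of the other lines was largely fixed by the filter. DNA methylation itself was not analysed here.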

How the data were processed

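Total RNA of 11 libraries from 3 mouse lines was measured by RNA-seq. Per the labels' protocols, RNA was taken with RNeasy columns and libraries were made with a NEBNext Ultra kit. Per the submitters' processing notes, the authors used bcl2fastq 1.8.4, TopHat and Cufflinks with the mm10 build. Each deposited table gives FPKM per gene from the authors, which was used without rescaling. Read counts were not used here, so depth limits are unknown and precision is given by the spread between replicates.

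Entries that share a symbol were summed. Left out were 3 symbols with a failed status and 2 symbols that name different loci in different tables. Technical runs were averaged and counted once. Line differences were fitted with limma 3.58.1 (R 4.3.3, intensity trend) on log2(FPKM + 1) over 10 replicates, for genes that reached 1 FPKM in 3 or more. Reporter differences used 7 replicates (NIH3T3 left out) and genes that reached 1 FPKM in 2 or more. Tests were two-sided, with Benjamini-Hochberg adjustment over all genes tested, and called genes have an adjusted p under 0.05 and a fold of at least 2. The fit was tested on simulated data. Shares were compared between ES cells and the pooled replicates of both other lines with exact permutation tests. Alternatives were another pseudocount, no filter, other scalings, single technical runs, replicates left out, the replicate block and subsets of libraries. For the subsets, a filter lowered to the size of the smallest group was added after the data were seen. Tables were made in Python 3.11.15 with pandas 2.3.3 and NumPy 2.4.6, permutation tests with SciPy 1.17.1 and figures with matplotlib 3.10.9.

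Named are the 8 genes, up to 4 called genes of each list with the largest absolute log2 difference per line comparison, and the 3 nearest profiles of each of the 8. Tdg, Hdac1, Usp7, Tdrkh and Brdt, the summed marker lists and the single pluripotency markers were added after their values were seen. The genes and the lists were chosen with earlier results of these data known. A gene of the methyl-CpG reader list is not reported here and is left out of that list's counts.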

Additional observations from a re-analysis of the deposited data

How the results depend on the processing

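Counts of calls in the line comparisons were closer to those with all replicates when 1 replicate was left out than in the smaller subsets. Between ES cells and NMuMG the 8 genes kept their direction under every alternative that tested them, and 7 to 8 of the 8 and 4920 to 5812 genes were called as single replicates were left out. With parental cultures alone 2 of the 8 and 3441 genes were called (29.3% of them higher in ES cells, against 42.3% in the whole set), within library series 2 it was 2 and 2566 (23.7%), and within series 1 it was 5 and 4067. In these subsets the filter of 1 FPKM in 3 replicates left out Dnmt3b, Dnmt3l and Tet1, since the ES cells have 1 or 2 replicates there. A filter lowered to the size of the smallest group was therefore added after the data and the counts above had been seen. It gave 5 and 2366 (54.5%), 4 and 2034 (49.6%), and 8 and 5938. Under it those 3 genes enter mainly through ES cells, where they are high, so their calls were largely fixed by the filter. Between ES cells and NIH3T3, 5 to 6 of the 8 and 4548 to 5161 genes were called without single replicates, 2 and 2599 with parental cultures alone (5 and 2357 under the lowered filter), and 1 and 1676 within series 2 (4 and 1958), where Dnmt3a reversed to -0.032 under both filters. Between NIH3T3 and NMuMG, 0 to 1 of the 8 (Dnmt1 without NMuMG replicate 3, 1.07) and 2606 to 3323 genes were called, 772 with parental cultures alone (31.1% higher, against 42.4%) and 407 in series 2 (18.7%), or 877 (69.6%) and 939 (66.5%) under the lowered filter. In these subsets Tet3 turned to 0.005 and 0.070 under both filters. A pseudocount of 0.1 gave 2 calls, Dnmt3l (1.76) and Tet1 (2.53). A group with 1 replicate is taken to vary like the others. The number of genes tested differs between these fits and is not given, so the counts for the 8 genes cannot be set against a share of all genes. Quantile normalization moved the median of all genes between ES cells and NMuMG by 0.162. The cause of these shifts was not tested.

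With the library series as a replicate block, 8, 5 and 0 of the 8 genes were called in ES cells against NMuMG, ES cells against NIH3T3 and NIH3T3 against NMuMG. Dnmt3a lost its call against NIH3T3 (0.70) and Tet3 between NIH3T3 and NMuMG turned to 0.127. NIH3T3 replicates 2 and 3 make up series 3 by themselves, so the NIH3T3 differences under the block rest on NIH3T3 replicate 1. The shares of all genes called under the block in the line comparisons are not given here. Under the block 8 genes were called between NMuMG reporter and parental cultures and 0 between those of ES cells, and the block turned Dnmt1 (0.014) and Tet1 (0.062) in the ES comparison. NMuMG and ES replicates of the same library series deviated together (correlations over genes 0.163 to 0.289, against -0.362 to -0.121 for different series). This is a hint from the data and not from the labels.

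The reporter comparisons depended more on the processing. In NMuMG, 26 genes became 59 with a pseudocount of 0.1, 17 without the filter, 10 after quantile normalization and 0 to 32 without single replicates. None of the 8 genes was called by limma in any of these. Quantile normalization turned Dnmt3b (0.161), Dnmt3l (0.045) and Tet1 (0.042), and leaving out replicate 1 or 4 turned Dnmt3b (0.025 and 0.041) and Dnmt3l (0.018 and 0.040), whose ranges over single replicates left out were -0.173 to 0.041 and -0.130 to 0.040. In ES cells, 12 genes became 225 without the filter, with 2 of the 8 called, 0 after quantile normalization, and 105 to 122 without 1 reporter replicate, with 1 to 2 of the 8 called. Without replicate 3, Dnmt1 (0.035) and Tet1 (0.281) turned, against -0.233 and -0.389 without replicate 2.

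The difference in Dnmt3b share was 64.5 points within series 1 (exact p = 0.333), 68.2 in series 2 (no test), 67.3 against NMuMG alone (exact p = 0.0571), 60.9 against NIH3T3 alone (exact p = 0.1) and 60.3 to 69.2 without single replicates. That in Tet1 share was 68.4, 44.3, 61.0, 50.9 and 48.3 to 64.1 in the same order. These p-values are the smallest such groups allow.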
